A study of Mus musculus with 12 samples.

Results

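The auditory nerve of ouabain-treated ears was compared directly between 7 days and 3 days after treatment. All 6 arrays of ouabain-treated nerve in the series were used, 3 at each day, out of 12 arrays in all, and the other 6 arrays, of untreated nerve at the same days, gave the background. The animals were adult CBA/CaJ mice of both sexes, aged 8 to 12 weeks. The right ear was operated on, and about 10 µl of ouabain at 3 mM was placed in the round window niche and renewed about every 10 min over 60 min. The left ear was not operated on and served as the control, so surgery and drug cannot be told apart, and the control ears belong to treated mice. The bony shell, the lateral wall and most of the sensory epithelium of each cochlea were dissected away. What was left, the modiolus, holds the auditory nerve. Each array held RNA pooled from a pair of such preparations, and the animals of each pool are not named, and all p-values therefore rest on the spread from pool to pool. The values are expression levels on the log2 scale, 1 per probe set, as the authors deposited them, and a difference of 1 on that scale is a doubling.

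Ouabain blocks the sodium potassium pump, and in the cochlea of mice it kills most type I spiral ganglion neurons, the cells that carry sound information from inner hair cells to the brain. Their axons are wrapped by Schwann cells, and satellite glial cells wrap their cell bodies. After a peripheral nerve injury Schwann cells leave the myelinating state, take up a repair state and divide, and macrophages enter the nerve and clear debris. In time division ceases and the surviving glia settle among fibroblasts and newly laid matrix. The direct comparison of the days asks how the injured nerve at the later day differed from the injured nerve at the earlier day. In bulk tissue of this kind, fewer cells of a type and less RNA per cell cannot be told apart.

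The arrays resembled each other closely. Array medians ran from 6.01 to 6.09 on the log2 scale. Pearson correlations over all probe sets were 0.992 to 0.995 within the 3-day group and 0.993 to 0.994 within the 7-day group, against 0.986 to 0.992 between arrays of different days. The pools differed in the sex of the mice. Xist, the RNA that coats the inactive X chromosome of females, stood at 5.45, 12.11 and 11.77 in ouabain-treated nerve at 3 days and at 5.08, 5.48 and 10.15 at 7 days. The Y-linked gene Eif2s3y stood at 9.78, 3.26 and 3.52 at 3 days and at 9.65, 9.32 and 8.67 at 7 days. Of the ouabain arrays, replicate 3 at 7 days alone was high in both, and the untreated pools of equal number showed the same pattern. Female RNA was therefore more common at 3 days. A fit with the Xist level as a covariate was added after the data were seen, and its values are given beside the results that it changed most. Of the markers of the labelled tissue, the myelin gene Mbp lay between 13.62 and 13.85 on all ouabain arrays. Of 15 genes of skeletal muscle, a tissue that should be absent, 10 were below 6 on all 12 arrays. The muscle list also holds Pvalb, which is in the neuron list as well and need not be absent.

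Between 3 and 7 days, 749 of 18193 genes differed in ouabain-treated nerve by more than 1.5-fold at an adjusted p under 0.05 (limma), which is 4.12% of the genes. Of these, 411 genes were lower at 7 days (2.26%) and 338 were higher (1.86%). Both shares are the background for the counts of each gene list below. The falls were larger than the rises, with 195 genes lower by more than 2-fold and 62 higher, and 23 lower by more than 4-fold and 4 higher. In probe sets the count was 1264 of 45037 (2.81%), 750 lower and 514 higher, and 8339 probe sets had an unadjusted p under 0.05. A gene was represented by its brightest probe set that carries exactly 1 gene symbol. The count of probe sets fell to 777 without the 3-day ouabain array of replicate 3, and was 1274 with the Xist level in the fit, of which 1008 were shared with the 1264.

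Untreated nerve changed far less over the same days. There, 5 probe sets and 3 genes passed (0.0165% of genes), and 3102 probe sets had an unadjusted p under 0.05. Ch25h, which hydroxylates cholesterol, and Prodh, which degrades proline, were lower at 7 days, and 1700012B07Rik was higher. The last of these rose in ouabain-treated nerve as well, by 1.04 (SE 0.12), from 5.44, 5.29 and 5.61 to 6.5, 6.54 and 6.41. A test of whether the day difference itself differed between treated and untreated ears passed for 213 genes (1.17%), 168 of them with the lower difference in treated ears (0.923%) and 45 with the higher (0.247%). Both this test and the direct comparison passed, with the same sign, for 151 of the 411 lower genes and for 32 of the 338 higher genes. The median difference in untreated nerve was 0.03 over the 411 lower genes and 0.11 over the 338 higher genes.

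**Figure D1:**
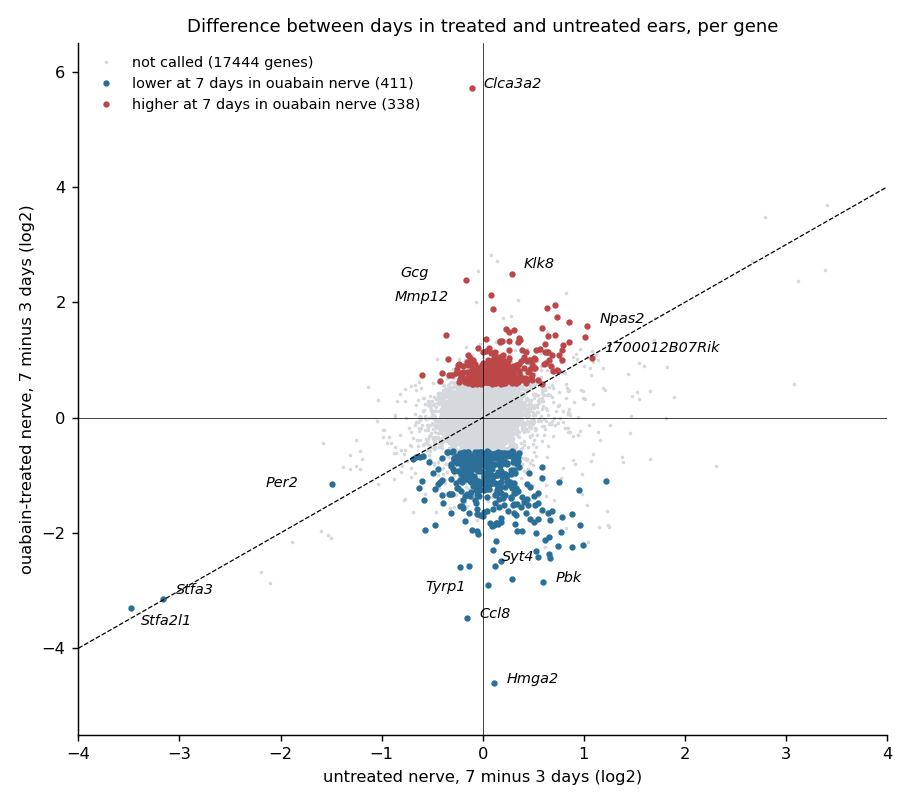
Each point is a gene, with its 7 minus 3 day difference (log2) in untreated nerve on the horizontal axis and in ouabain-treated nerve on the vertical axis, and the dashed line marks equal differences. Blue points are the 411 genes lower at 7 days and red points the 338 higher. Hmga2, Ccl8, Tyrp1 and Syt4 lie near zero on the horizontal axis, while Stfa2l1, Stfa3, Per2 and Npas2 moved in untreated nerve too.

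Of the gene lists examined, mitosis held the most falls. Of 29 measured genes, 21 were lower at 7 days and none was higher, and their median difference was -1.76, against 0.01 over all genes and 0.38 for the same list in untreated nerve. All 29 had a lower mean at 7 days, as had 48.5% of all genes, and in 27 the 3 arrays of one day did not overlap those of the other, which held in the same direction for 12.5% of all genes. Pbk, a mitotic kinase, stood at 10.08, 10.37 and 10.51 at 3 days and at 7.65, 7.17 and 7.6 at 7 days. It fell by 2.84 (SE 0.31, adjusted p 0.000358, limma). Kif11, the motor that pushes the spindle poles apart, went from 6.84, 6.98 and 7.49 to 5.05, 4.53 and 5.04, and Bub1, a kinase of the spindle checkpoint, from 6.87, 7.42 and 7.81 to 5.25, 4.39 and 5.36. Their falls were 2.23 (SE 0.33, adjusted p 0.00296) and 2.37 (SE 0.46, adjusted p 0.0123). Cep55, which acts at the last step of cell separation and was not in the list, stood at 8.08, 8.70 and 8.51 at 3 days and at 5.87, 5.80 and 6.18 at 7 days.

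The rest of the mitotic genes that fell included Birc5 (-2.22), Kif2c (-2.14), Top2a (-2.13), Ccna2 (-1.99), Cdk1 (-1.77), Aurkb (-1.50), Plk1 (-1.14) and Cdc20 (-0.80). Mki67, the gene of the proliferation antigen Ki-67, stood at 9.44, 9.79 and 10.12 and then at 8.33, 7.07 and 7.49, with a difference of -2.15 that missed the threshold (adjusted p 0.11). Against untreated nerve of the same day, 27 of the 29 were higher at 3 days and none passed at 7 days, with medians of 2.48 and 0.02. Of all genes, 7.51% were higher and 8.06% lower in treated nerve at 3 days, and 7.57% and 8.2% at 7 days. The number of mitotic genes that passed rested on few arrays. It was 7 without the 3-day ouabain replicate 3, 9 without 3-day replicate 2, 8 without 7-day replicate 2 and 11 without 7-day replicate 1, while the median kept between -1.94 and -1.56. The untreated 7-day array of replicate 1 stood high in this list, at -0.68 relative to the 3-day ouabain mean against -2.20 and -2.49 in the other two, and without it 27 of the 29 passed. The same array was the highest of its group in erythroid genes (2.23 against 0.95 and 0.69), B cell genes (0.50 against 0.12 and -0.15) and neutrophil genes (0.44 against -0.37 and -1.70). It enters the untreated median of 0.38, the 7-day median of 0.02 and the tests of the difference between ears for this list, and the part of blood or marrow cells in these values was not tested. With the Xist level in the fit, 15 passed and the median was -1.73, and Birc5, Top2a, Ccna2, Cdk1 and Cdc20 were among those that did not (adjusted p 0.0573 to 0.0753).

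Promoters of mitotic genes often carry the CCAAT box, the recognition sequence of the factor NF-Y. They also often carry the cell cycle homology region, whose core is TTTGAA, an element long studied in the repression of such genes outside of division. Both motifs were searched for in promoter windows of RefSeq (GRCm38.p6), which run from 250 bases before to 50 bases after each start, on both strands, where they read ATTGG and TTCAAA. Of the 21 mitotic genes that fell, 16 had a window, and 12 of these held TTTGAA, 12 held CCAAT and 10 held both (62.5%). Over all 14452 measured genes with a window the shares were 15.7%, 42% and 6.21%, and of all 32851 windows 17.9% held TTTGAA, 37.4% held CCAAT and 6.95% both. Of the 7 mitotic genes with a window that did not pass, 5 held TTTGAA and 4 held both. Of the 6 such genes of DNA replication that fell, 2 held CCAAT, 1 held TTTGAA and none held both, and of the 14 that did not pass, 11 held CCAAT, 2 held TTTGAA and 2 held both. The stretches below are shown because they hold both motifs within a short distance before the start of genes that fell together, with the motifs in capitals, written 5′ to 3′ on the strand of the gene. They lie at chr19:37376329-37376376 on the plus strand for Kif11, chr7:80294406-80294459 on the plus strand for Prc1, which bundles the spindle midzone, and chr4:118437344-118437404 on the minus strand for Cdc20, an activator of the anaphase-promoting complex.
Kif11: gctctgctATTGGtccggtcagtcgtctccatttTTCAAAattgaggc
Prc1: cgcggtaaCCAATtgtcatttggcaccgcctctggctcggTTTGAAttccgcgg
Cdc20: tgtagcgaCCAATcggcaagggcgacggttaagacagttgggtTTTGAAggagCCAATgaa
The matches are letters in a window and were not tested as sites.

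Genes of DNA replication and S phase fell less. Of 25 measured genes, 9 were lower and none was higher, with a median of -0.67 against 0.18 in untreated nerve. Ccne2, a cyclin that starts S phase, stood at 7.65, 7.55 and 8.03 at 3 days and at 6.0, 5.70 and 5.92 at 7 days, a fall of 1.87 (SE 0.16, adjusted p 8.00e-05), and its 7-day arrays lay below all 6 untreated arrays, which ran from 6.61 to 7.25. Uhrf1, which keeps DNA methylation through replication, fell by 2.31 (SE 0.45) and Cdt1, which licenses replication origins, by 1.52 (SE 0.28). The other members that fell were Mcm5 (-1.31), Gins2 (-1.16), Gins1 (-1.12), Rfc4 (-0.71), Ccne1 (-0.67) and Fen1 (-0.62). Pclaf and Dscc1, a clamp-binding protein and a subunit of a clamp loader, were among the 12 largest falls, at -2.42 and -2.43. Without the 3-day ouabain replicate 3 only 2 members passed, 5 without 3-day replicate 2, 4 without 7-day replicate 2, 14 without the untreated 7-day replicate 1, 15 without the 3-day ouabain replicate 1, and 6 with the Xist level in the fit. With the Xist level, Mcm5, Fen1 and Ccne1 did not pass. The call of Cdt1 was lost without the 3-day ouabain replicate 3, and those of Uhrf1 and Bub1 without that array or the 7-day replicate 2.

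Among 16 D cyclins and inhibitors of the cell cycle, Ccnd1 alone passed. This cyclin, which links growth signals to the cell cycle, stood at 11.47, 11.98 and 12.13 at 3 days and at 10.57, 10.51 and 10.62 at 7 days, a fall of 1.30 (SE 0.16, adjusted p 0.000962). All 7-day arrays remained above the untreated arrays, the highest of which was 9.12. With the Xist level in the fit, Btg2, another member of the list, was higher (1.02, adjusted p 0.0345, limma). Of 17 transcription factors of injured nerve, 2 fell and none rose, while with the Xist level in the fit Fosl2 (0.83, adjusted p 0.0269) and Egr1 (0.74, adjusted p 0.00412) were higher besides. Fosl1, a partner of Jun, went from 5.86, 6.60 and 6.77 to 4.41, 4.46 and 4.81, and Myc, a driver of growth, from 8.66, 8.81 and 9.13 to 7.85, 7.68 and 7.83. The differences were -1.85 (SE 0.22, adjusted p 0.000648) and -1.08 (SE 0.14, adjusted p 0.00102). Fosl1 was not above 6 on at least 3 arrays, and its 7-day values may lie near background.

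Hmga2, a chromatin protein of fetal and stem cells, had the largest measured fall of any gene. It stood at 9.93, 10.78 and 11.16 at 3 days and at 6.01, 6.13 and 5.92 at 7 days, a fall of 4.60 (SE 0.24, adjusted p 1.70e-06), in which all 4 of its probe sets fell. Untreated nerve lay between 5.47 and 6.04, so the 7-day arrays overlapped its range and the 3-day arrays stood far above it. Whether the 7-day values lie above background is not known, and no fold is given. Tyrp1, an enzyme of melanin synthesis, fell likewise, from 7.84, 7.92 and 7.88 to 4.57, 5.14 and 5.24, against 4.52 to 4.92 in untreated nerve. It fell by 2.90 (SE 0.16, adjusted p 2.08e-06). Gm16316, a predicted gene, fell by 2.79 (SE 0.16), from 6.85, 7.25 and 7.64 to 4.47, 4.36 and 4.52, against 4.48 to 4.96 in untreated nerve.

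Syt4, a synaptotagmin of secretory vesicles, passed from above to below the untreated level. It stood at 11.71, 11.85 and 12.06 at 3 days and at 9.52, 9.12 and 9.24 at 7 days, with untreated arrays between 10.24 and 10.58, and it fell by 2.58 (SE 0.12, adjusted p 1.19e-06). Ccl8, a chemokine that draws monocytes, went from 11.48, 11.87 and 12.08 to 8.35, 9.17 and 7.49, a fall of 3.47 (SE 0.41, adjusted p 0.000671), and Saa1, an acute phase protein, from 8.95, 9.94 and 9.42 to 7.00, 6.63 and 6.96, a fall of 2.58 (SE 0.21, adjusted p 4.28e-05). Both were still above all untreated arrays at 7 days, which reached 6.54 for Ccl8 and 4.41 for Saa1. The probe sets of Saa1 and its close relative Saa2 may read both genes.

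Stfa2l1 and Stfa3, stefins that inhibit cysteine proteases and abound in myeloid cells, behaved otherwise than the other leading genes. Stfa2l1 stood at 5.97, 8.41 and 8.71 at 3 days and at 4.33, 4.56 and 4.27 at 7 days in ouabain-treated nerve, and at 6.68, 8.46 and 8.38 and then 4.71, 4.39 and 3.97 in untreated nerve. The day differences were -3.31 in treated and -3.48 in untreated ears, and for Stfa3 -3.15 and -3.16. The fits called the treated ears only, at adjusted p values of 0.011 and 0.0371 against 0.296 for Stfa2l1 in untreated ears, and the test of the difference between ears gave 0.17 (SE 0.88, adjusted p 0.962). Stfa genes are near-identical copies, so a probe set may read several. The Stfa2l1 call was lost without the 3-day ouabain replicate 2 or 3, and that of Stfa3 without either of those arrays, any of the 7-day ouabain arrays or the 7-day untreated replicate 2, and with the Xist level in the fit. Of the 12 genes with the largest falls, the other 10 passed the test of the difference between ears and held their call whichever array was left out.

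**Figure D2:**
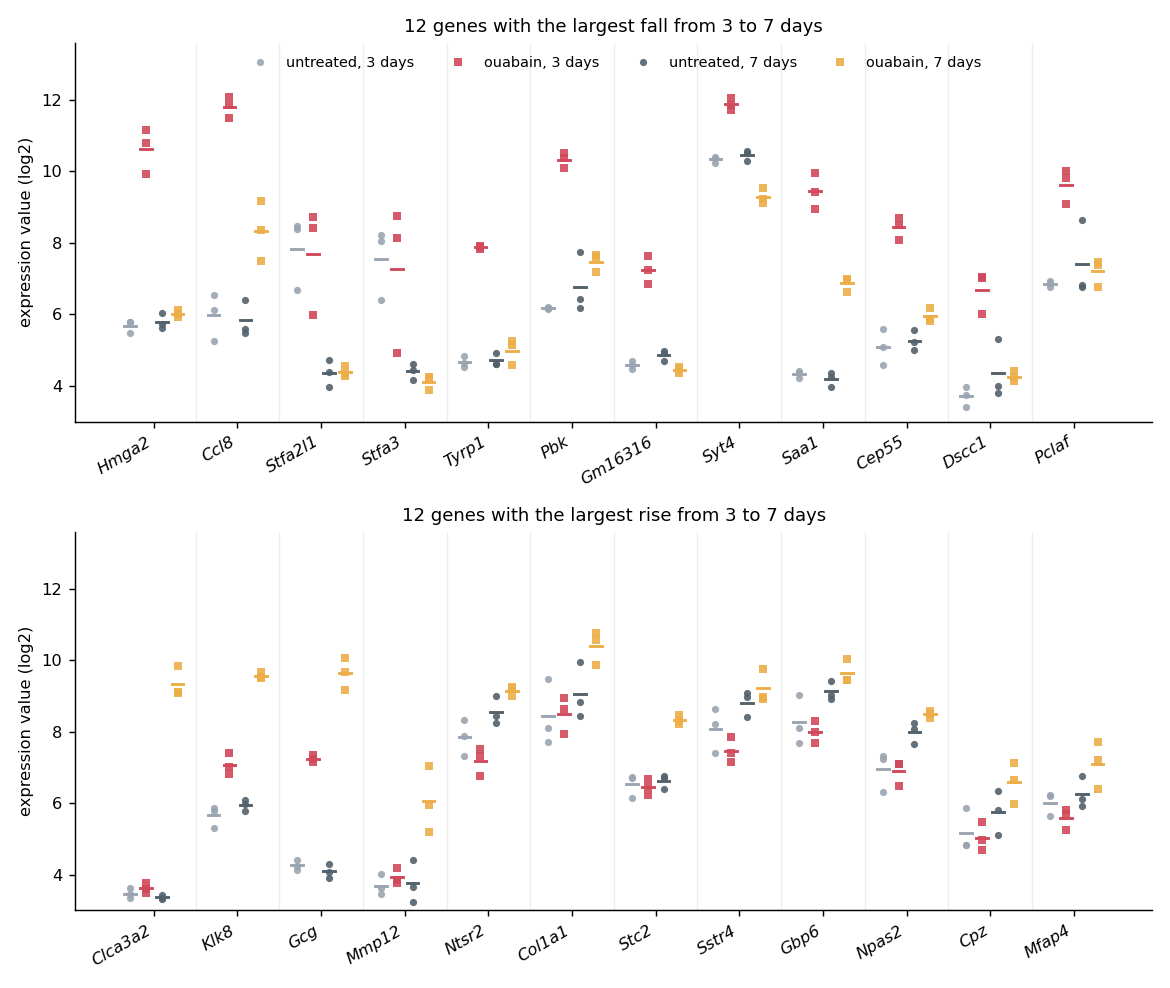
Expression values (log2) of the 12 genes with the largest fall and the 12 with the largest rise from 3 to 7 days in ouabain-treated nerve. Each point is an array, squares are ouabain-treated and circles untreated nerve, and bars are group means, n = 3. Hmga2, Tyrp1 and Gm16316 at 7 days lay at or close to the untreated arrays, Clca3a2 rose from 3.50 to 3.78 at 3 days to 9.07 to 9.83 at 7 days, and Stfa2l1 and Stfa3 were as high in untreated as in treated nerve at 3 days.

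The largest measured rise was in Clca3a2, a protein that modulates calcium-activated chloride channels. It stood at 3.78, 3.59 and 3.50 at 3 days, close to the untreated arrays at 3.33 to 3.62, and at 9.11, 9.07 and 9.83 at 7 days. The difference was 5.71 (SE 0.17, adjusted p 1.87e-08), and both of its probe sets rose. The 3-day values were below the lower quartile of every array, 4.26 to 4.39, and may lie at background, so no fold is given. Its neighbour in sequence Clca3a1 rose by 1.43 (SE 0.18, adjusted p 0.00102), from 4.48, 4.59 and 4.66 to 5.88, 5.82 and 6.31, and its probe sets may share signal with Clca3a2. Of the other 5 measured genes of this family, chosen after values were seen, Clca2 rose by 0.84 and 4 differed by less than 0.1.

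Klk8, a secreted serine protease also called neuropsin, and Gcg, which encodes proglucagon, were already above untreated nerve at 3 days and rose further. Klk8 stood at 6.82, 7.00 and 7.41 and then at 9.52, 9.68 and 9.50, a rise of 2.49 (SE 0.17, adjusted p 1.47e-05). Gcg stood at 7.34, 7.25 and 7.15 and then at 9.67, 9.17 and 10.05, a rise of 2.39 (SE 0.18, adjusted p 3.48e-05), while untreated arrays did not pass 4.41. Stc2, a secreted glycoprotein, lay within the untreated range at 3 days, at 6.45, 6.68 and 6.23, and above it at 7 days, at 8.23, 8.31 and 8.47, a rise of 1.88 (SE 0.17). These 3 genes and Clca3a2 were the only ones of the 12 largest rises that also passed the test of the difference between ears.

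The other 8 leading rises were Mmp12, the macrophage elastase (2.12, SE 0.39), Ntsr2, a neurotensin receptor of astrocytes (1.96, SE 0.26), the collagen gene Col1a1 (1.90, SE 0.47), the somatostatin receptor Sstr4 (1.75, SE 0.32), the interferon-induced GTPase Gbp6 (1.65, SE 0.29), the clock factor Npas2 (1.59, SE 0.25), the carboxypeptidase Cpz (1.55, SE 0.38) and the microfibril protein Mfap4 (1.53, SE 0.31). Mmp12 stood at 3.78, 4.19 and 3.84 at 3 days and at 7.03, 5.20 and 5.94 at 7 days, above all 6 untreated arrays, which reached 4.41. Its 3-day values were below the lower quartile of every array, 4.26 to 4.39, and may lie at background. For Ntsr2, Sstr4, Gbp6 and Npas2 the untreated nerve rose in mean as well, by 0.71, 0.73, 0.85 and 1.03, none of which passed. Calls of Col1a1, Cpz and Mfap4 were lost without the 3-day ouabain replicate 3 or the 7-day replicate 1, those of Col1a1 and Cpz also without 3-day replicate 2 or 7-day replicate 3 and with the Xist level in the fit, and that of Col1a1 without 7-day replicate 2 or the 3-day untreated replicate 3 too. Without the 3-day replicate 3, Col1a1 differed by 1.96 at an adjusted p of 0.1005.

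Genes of mature Schwann cells fell in part. Of 18 measured genes of the myelin list, 7 were lower at 7 days and none was higher, with a median of -0.48 against -0.05 in untreated nerve, and the count was 7 or 8 whichever array was left out. The gap junction genes led. Gjc3, of connexin 29, stood at 7.37, 7.80 and 7.69 at 3 days and at 5.76, 5.66 and 5.94 at 7 days, and Gjb1, of connexin 32, at 9.28, 9.41 and 9.40 and then at 7.83, 7.67 and 7.84. They fell by 1.83 (SE 0.14, adjusted p 4.13e-05) and by 1.58 (SE 0.09, adjusted p 3.13e-06). At 3 days both were above the untreated arrays and at 7 days below them.

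Ncmap, a membrane protein of noncompact myelin, stood at 10.98, 10.77 and 10.46 and then at 9.68, 9.27 and 9.31, against 11.81 to 12.23 in untreated nerve, so that a level already low at 3 days fell by a further 1.32 (SE 0.14, adjusted p 0.000262). The other falls were in Dhh, the hedgehog ligand of Schwann cells (-0.91), the claudin Cldn19 (-0.90), and Fa2h and Ugt8a, enzymes of myelin lipid synthesis (-0.80 and -0.73). Gjc3, Gjb1, Ncmap, Dhh and Ugt8a also passed the test of the difference between ears. The genes of major myelin proteins did not pass. Mbp stood at 13.76, 13.65 and 13.78 and then at 13.85, 13.71 and 13.62, Pmp22 differed by -0.43 (adjusted p 0.0115), Mag by -0.31, and Egr2, the transcription factor that drives myelination, by -0.46 (adjusted p 0.264).

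Genes of immature and repair Schwann cells divided. Of 28 measured, 3 fell and 2 rose. The median was -0.02, and against untreated nerve the median of the list was 1.32 higher at 3 days and 1.23 higher at 7 days. Pou3f1, a transcription factor of promyelinating cells, stood at 11.97, 12.01 and 11.92 at 3 days and at 9.86, 9.79 and 10.40 at 7 days, where it met the untreated range of 9.91 to 10.57. It fell by 1.95 (SE 0.13, adjusted p 1.51e-05). Clcf1, a cytokine of the ciliary neurotrophic factor family, went from 8.92, 8.74 and 8.95 to 7.51, 7.43 and 7.68, and Gfra1, the GDNF receptor, from 12.13, 12.56 and 12.51 to 10.97, 11.15 and 11.29, both still above all untreated arrays. They fell by 1.33 (SE 0.13) and 1.26 (SE 0.18), and all 3 passed the test of the difference between ears. The growth factor gene Btc rose by 0.80 and Gfap by 0.59, and neither was called without the 3-day ouabain replicate 2. The Gfap call was lost for 7 of the 12 arrays when each was left out. Gfap was higher by about as much in untreated nerve, as given below.

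No gene of the neuron list passed in either direction (limma), and 25 of its 32 members had a lower mean at 7 days, with a median of -0.62 against -0.06 in untreated nerve. The pools differed more than the days. Scn8a, a sodium channel of nodes of Ranvier, stood at 8.99, 7.64 and 7.5 at 3 days and at 7.58, 6.25 and 5.71 at 7 days, and Scn1a, a related channel, at 8.89, 6.23 and 6.71 and then at 7.22, 5.21 and 4.68. Their differences were -1.53 (SE 0.44, adjusted p 0.0673) and -1.57 (SE 0.66, adjusted p 0.225). Replicate 1 was the highest of its day for both genes, and over the list it stood 0.75 above the 3-day mean at 3 days and 0.04 above it at 7 days, where the others were at -0.65 and -0.97. Without the 7-day replicate 1, 6 genes were lower and 1 higher, and without replicate 1 of both days, 9 were lower. With the Xist level in the fit, Nefh (-1.71), Scn1a (-2.19), Scn8a (-1.94), Elavl4 (-1.31) and Uchl1 (-1.05) were lower. The neurotrophin receptors Ntrk3 (0.71) and Ntrk2 (0.62), which glia express too, were higher there. At 3 days replicate 1 was the only ouabain array low in Xist, at 5.45 against 12.11 and 11.77. Sex and the higher neuron level of that pool cannot be told apart in this fit. Of 17 genes of neuron injury and growth none passed, and the largest differences were in Ecel1 (-0.84, adjusted p 0.103) and Tubb6 (-0.70, adjusted p 0.0602).

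**Figure D3:**
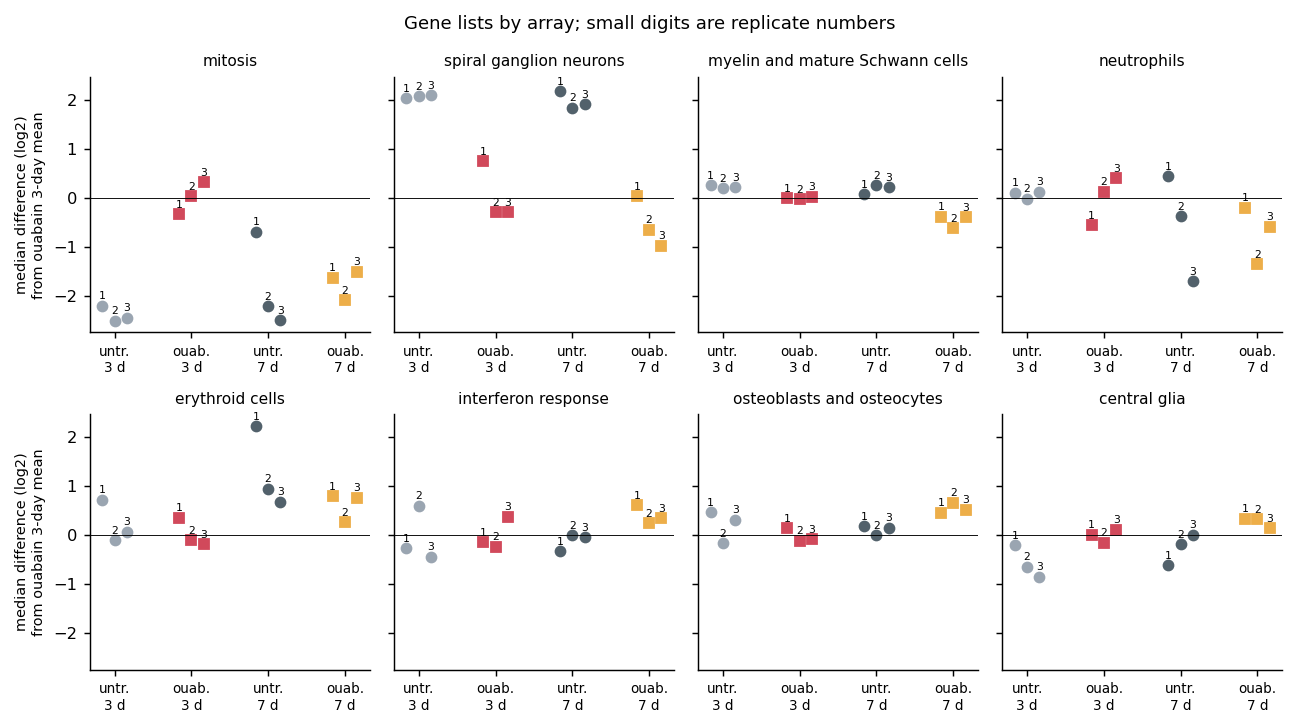
Level of 8 gene lists on each array, as the median over members of the log2 difference from their 3-day ouabain mean, with small digits for replicate numbers. In mitosis the 3 ouabain arrays at 7 days lie between -2.08 and -1.50, apart from those at 3 days, and the untreated 7-day replicate 1 stands at -0.68. In neurons replicate 1 is the highest ouabain array of each day, and in neutrophils the days overlap.

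Of 20 measured chemokine genes, 4 fell and 2 rose, against 2.26% and 1.86% of all genes. Besides Ccl8, the monocyte attractants Ccl2 and Ccl7 fell by 1.26 and 0.73, and Cxcl14 fell by 1.81 (SE 0.22, adjusted p 0.000772), from 9.51, 9.52 and 9.93 to 7.90, 7.73 and 7.90, still above the untreated arrays at 5.70 to 6.75. Cxcl5 and Cxcl2, which draw neutrophils, were higher, by 1.51 and 1.14. Cxcl5 stood at 3.56, 4.18 and 4.11 and then at 6.39, 5.02 and 4.99, with replicate 1 at 7 days well above the others. Its 3-day values were below the lower quartile of every array, 4.26 to 4.39, and may lie at background. Neither Cxcl5 nor Cxcl2 was called without the 3-day ouabain replicate 1 or 3 or the 7-day replicate 1. With the Xist level in the fit Cxcl2 did not pass (adjusted p 0.0802). None of 18 genes of acute inflammatory cytokines passed, and 8 of them were below 6 on all arrays.

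Macrophage genes were as high at 7 days as at 3 days on balance. Against untreated nerve the median of 21 measured genes was 1.6 higher at each day, with 19 members called higher at each, and between the days the median was 0.04, with 3 members higher and 2 lower. Ms4a7, a marker of blood-derived macrophages, stood at 9.18, 9.28 and 9.19 and then at 9.91, 10.30 and 10.47, and Clec7a, the receptor dectin-1, at 9.26, 8.81 and 9.06 and then at 10.03, 10.14 and 9.89. They rose by 1.01 (SE 0.16, adjusted p 0.00367) and 0.98 (SE 0.16, adjusted p 0.00574), and P2ry12, a marker of microglia, by 0.82, a call lost with the Xist level in the fit (adjusted p 0.0966). Lgals3, a lectin of phagocytes, fell by 1.13 (SE 0.16, adjusted p 0.00219), from 13.02, 13.33 and 13.32 to 12.03, 11.95 and 12.29, and the scavenger receptor Cd163 by 0.96. Of 18 lysosomal and phagocytic genes, Gla, a lysosomal galactosidase, fell by 1.07 and Mertk, which engulfs dead cells, by 0.69, the latter beside a difference of -0.62 in untreated nerve. None of 13 complement genes passed.

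Genes of class II antigen presentation rose in part. Of 16 genes of antigen presentation, 5 rose and none fell, with a median of 0.36 against 0.15 in untreated nerve. H2-Aa stood at 7.78, 8.08 and 8.15 and then at 9.11, 9.52 and 9.15, H2-Eb1 at 6.36, 6.80 and 6.69 and then at 7.82, 7.55 and 8.00, and the 3-day arrays of each lay below those of 7 days. H2-Aa rose by 1.26 (SE 0.25, adjusted p 0.0155), H2-Eb1 by 1.17, H2-Ab1 by 0.99, the invariant chain Cd74 by 0.95 and the costimulator Cd86 by 0.63. The untreated nerve differed by 0.80, 0.78 and 0.78 for the first 3, and none of the 5 passed the test of the difference between ears. The count was 1 without the 7-day ouabain replicate 2, 2 without replicate 1 of either day, and 3 without any of the other ouabain arrays. Of 17 interferon-induced genes none passed, with a median of 0.48, and replicate 1 at 7 days stood apart in Rsad2, at 10.62 against 8.88 and 8.78.

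Among 13 T cell genes, Gzmb, a protease of cytotoxic cells, rose by 0.82 and Cd28, a costimulatory receptor of T cells, by 0.81. Neither was above 6 on at least 3 arrays, and 7 of the 13 were below 6 on all arrays, so these values may lie near background. Among 13 B cell genes, Ebf1, a B cell factor that fibroblasts and pericytes express too, rose by 0.60. Of these 13, 8 were below 6 on all arrays. None of 13 neutrophil genes passed, and the median was -0.67 in ouabain-treated and -0.35 in untreated nerve. Mpo, an enzyme of granulocyte precursors in bone marrow, stood at 6.91, 9.09 and 9.79 at 3 days and at 6.51, 6.26 and 6.93 at 7 days. The median level of the neutrophil list was between -0.55 and 0.40 at 3 days and between -1.35 and -0.20 at 7 days, relative to the 3-day mean, and its part in the falls of Stfa2l1 and Stfa3 was not tested. Of 10 erythroid genes, Tfrc, the transferrin receptor, which other cells express too, fell by 0.75, and the median of the list was 0.66 in treated and 0.82 in untreated nerve.

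Some matrix genes rose. Of 22 collagen genes, 5 rose and 1 fell, with a median of 0.32 against -0.07 in untreated nerve. Col1a1, the main chain of type I collagen, stood at 8.94, 7.94 and 8.63 and then at 10.58, 9.87 and 10.75. Col2a1, of cartilage, stood at 10.21, 9.87 and 9.65 and then at 10.75, 10.87 and 11.11, a rise of 1.0 (SE 0.19, adjusted p 0.0115), and Col11a1, Col8a2 and Col14a1 rose by 0.91, 0.89 and 0.72. Col5a3, a minor chain made by Schwann cells, fell by 1.47 (SE 0.15, adjusted p 0.000218), from 7.32, 7.84 and 7.73 to 6.04, 5.99 and 6.44, and it alone of these 6 passed the test of the difference between ears. The fall of Col5a3 held whichever array was left out. The number of rises was 0 without the 3-day ouabain replicate 3, 1 without 3-day replicate 2 or 7-day replicate 1, 2 without 7-day replicate 3 and 3 without 7-day replicate 2.

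Of 31 genes of matricellular proteins and provisional matrix, Mmp12, the crosslinking enzyme Loxl1 (0.66) and the gelatinase Mmp2 (0.61) rose, and Thbs2, a thrombospondin, fell by 0.81. Of 13 osteoblast and osteocyte genes, Col1a1, the osteocyte inhibitor Sost (0.96) and the parathyroid hormone receptor Pth1r (0.70) rose, and the median was 0.59 against 0.10 in untreated nerve. All 13 had a higher mean at 7 days. The modiolus is partly bone, and how much bone each pool held is not given. Calls here were few without a given array, with 0 of the 13 without the 7-day ouabain replicate 1, 1 without the 3-day replicates 2 or 3 or the 7-day replicate 2, and 1 with the Xist level in the fit. Of 22 endothelial genes, Tek, the angiopoietin receptor, went from 8.04, 8.00 and 7.99 to 8.64, 8.74 and 8.73, a rise of 0.69 (SE 0.10, adjusted p 0.00219), and its ligand Angpt2 fell by 0.68 (SE 0.10, adjusted p 0.00248). Aplnr, the apelin receptor, rose by 0.89, a call lost with the Xist level in the fit.

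**Figure D4:**
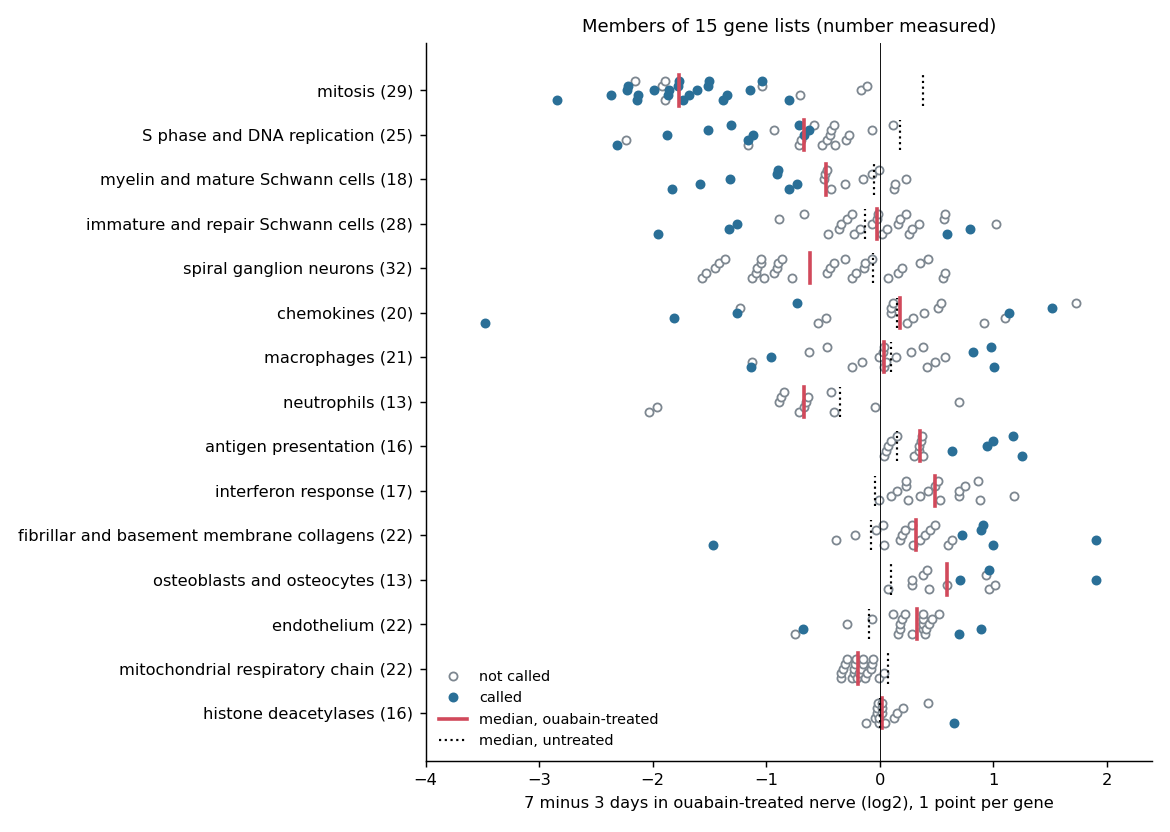
Difference between 7 and 3 days in ouabain-treated nerve (log2), 1 point per gene, for 15 gene lists with the number of measured genes in brackets. Filled points passed, red bars are list medians in ouabain-treated and dotted bars in untreated nerve. The median of mitosis was -1.76 with 21 filled points, that of neurons -0.62 with none, and that of histone deacetylases 0.02 with 1.

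A list of 14 genes was drawn up from those that the study assayed by qRT-PCR. Both Calb1 and Calb2 were entered, since the study names its calbindin gene only as Calb. Of these, 1 passed between the days and the median was -0.30. Gfap, an intermediate filament of glia, stood at 8.96, 8.90 and 9.30 and then at 9.66, 9.68 and 9.59, a difference of 0.59 (SE 0.15, adjusted p 0.0399) beside 0.58 in untreated nerve. Its call was lost under each of several settings, among them the Xist level in the fit (adjusted p 0.0694). Vim, another intermediate filament, stood at 13.58, 13.69 and 13.78 and then at 13.07, 13.08 and 13.21, a difference of -0.57 (SE 0.10, adjusted p 0.00766) that was under 1.5-fold. Sox2, a transcription factor of glia and progenitors, stood at 11.67, 11.40 and 12.06 and then at 11.61, 10.93 and 11.54, with overlap between the days, and Nes, which encodes nestin, differed by -0.25 (SE 0.12). Ngfr (-0.36), Nedd4l (-0.30), Gdnf (-0.29), Foxd3 (-0.25) and Ednrb (0.17) did not pass, nor did Fgf10 (-0.61), Shh (-0.67), Calb1 (-1.36), Calb2 (-0.14) and Dcx (0.35).

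Of 26 genes of neural stem and progenitor cells, Hmga2 fell, and Id1, an inhibitor of differentiation factors, rose by 0.62 (SE 0.10, adjusted p 0.00605) along with Gfap. Id1 stood at 10.91, 10.98 and 10.95 and then at 11.57, 11.51 and 11.62. The histone deacetylases were nearly level. Hdac1 stood at 9.56, 9.58 and 9.59 and then at 9.54, 9.51 and 9.62, and Hdac2 at 11.42, 11.40 and 11.29 and then at 11.40, 11.33 and 11.32, each with a difference of -0.02 (SE 0.07 and 0.08). Of the 16 measured, Hdac9 alone passed, at 0.66 (adjusted p 0.0468), a call lost in many settings, the Xist level in the fit included.

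The lists of metabolism and of other cochlear cells held few calls. Of 19 hypoxia and glycolysis genes, Hmox1, which degrades heme, fell by 0.86 (SE 0.16, adjusted p 0.00948). None of 22 genes of the respiratory chain passed, although 21 were lower in mean at 7 days and 14 did not overlap between the days, against 12.5% of all genes in this direction, with a median of -0.19 against 0.07 in untreated nerve. Ndufs1, of complex I, differed by -0.34 (adjusted p 0.0418), under 1.5-fold. None of 20 genes of ribosome biogenesis (median -0.19), 20 of endoplasmic reticulum stress (0.14), 21 of cholesterol synthesis (-0.06) or 14 of osteoclasts (-0.04) passed. None of 15 hair cell genes passed, and Otoa, which anchors the tectorial membrane, alone of 14 supporting cell genes rose, by 0.69. Of 17 lateral wall genes, Tyrp1 and Met, the receptor of hepatocyte growth factor, fell, the latter by 0.72. Of 17 genes of central glia, Opalin, of oligodendrocytes, rose by 1.02 (SE 0.15, adjusted p 0.00218) and Gfap as above, and the list stood higher in untreated nerve too, with medians of 0.30 and 0.37. None of 15 skeletal muscle genes passed.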

How the data were processed

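Affymetrix mouse arrays carried biotin-labelled RNA of the modiolus. Per the labels, the authors deposited log2 expression values from RMA in the Affymetrix Expression Console, a procedure that corrects background, normalizes by quantiles and summarizes probe sets, beside MAS5. Versions are not given in the sources used here. The table was used as it stands, after 64 control probe sets were left out of 45101. Of the 45037 tested, 34945 carry exactly 1 gene symbol, 932 several and 9160 none. A symbol of the reference gene table was found for 34741 of them. Probe sets without exactly 1 symbol were tested but named no gene, and listed genes without such a probe set were not used. For arrays, the 3 per group limit the precision.

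The 4 group means were fitted to all 12 arrays with limma (3.58.1, R 4.3.3), moderated by empirical Bayes and adjusted over all probe sets by Benjamini-Hochberg, and calls need an adjusted p under 0.05 and a fold above 1.5. The study's methods state an unpaired test and a fold above 1.5. The procedure was also run on simulated data with known changes, in which the noise was independent between probe sets and between arrays. Such data do not bear on the uneven sex of the pools or on the dependence on single arrays. Python 3.11.15 and matplotlib 3.10.9 made the promoter search and the figures. The members and the 37 gene lists were chosen with earlier results of these data known, so no set test was run, and list counts and medians are descriptions. Named genes are the 12 largest non-overlapping calls each way, up to 3 called members of each list or up to 2 where none was called, the qRT-PCR genes, Hdac1 and Hdac2, and genes called in untreated nerve too. Other names were chosen after values were seen. Alternatives were a fit on the 6 arrays, replicate blocks, other fold thresholds, a filter on dim probe sets, other scalings and moderation with a trend. Further ones were array weights, the methods' t-test, each array left out, and the mean over all probe sets of a gene instead of its brightest. Added later were the Xist level as a covariate and both ouabain replicates 1 left out. Samples with equal numbers were not taken as pairs.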

Additional observations from a re-analysis of the deposited data

Results flagged for a closer look

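The day difference in ouabain-treated ears differed from that in untreated ears, by a direct test of the difference (limma), for 370 probe sets. Among the named genes, the difference between the 2 day differences, treated minus untreated on the log2 scale, was -4.72 for Hmga2, -3.44 for Pbk, -3.32 for Ccl8, -3.10 for Dscc1, -3.08 for Gm16316, -2.98 for Kif11, -2.97 for Pclaf, -2.96 for Tyrp1, -2.71 for Syt4, -2.66 for Cep55 and -2.44 for Saa1. Smaller differences of the same sign were -2.0 for Fosl1, -1.98 for Cxcl14, -1.97 for Gjc3 and for Ccne2, -1.96 for Cdt1, -1.68 for Gjb1 and -1.63 for Ccnd1. They were -1.40 for Gfra1, -1.39 for Pou3f1, -1.22 for Lgals3, -1.18 for Clcf1, -1.08 for Col5a3, -1.01 for Ncmap and -0.95 for Myc. Positive differences were 5.82 for Clca3a2, 2.55 for Gcg, 2.20 for Klk8 and 1.78 for Stc2. No cause of these differences was tested. For Pbk, Dscc1, Kif11 and Pclaf the untreated 7-day array of replicate 1 stood above the other two, at 7.73, 5.30, 6.23 and 8.65, which enlarges the size of their differences.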

How the results depend on the processing

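None of the 69 named genes called changed sign under any setting run, but sizes depended on the probe sets used. With the mean over all probe sets of a gene in place of its brightest, 42 of these genes could be compared. The difference moved by more than the spread between pools in 30 of them and by less in 12. By that measure the median of the mitosis list was -1.24 and that of the S phase list -0.59. Some values near zero did change sign between settings, among them Calb2 (-0.45 to 0.20) and the medians of the macrophage, complement, hair cell and lateral wall lists. The 1264 probe sets called between the ouabain days became 2353 with no fold threshold and 416 with a fold above 2, and the methods' t-test after Benjamini-Hochberg adjustment left 3 with equal and 1 with unequal variances, against 1455 and 1292 unadjusted. The other settings gave 1084 to 1334. Leaving out each array gave 777 (without the 3-day ouabain replicate 3) to 1451 (without 3-day replicate 1). In untreated nerve the 5 probe sets became 0 in a fit on the 6 untreated arrays alone, 2 above 2-fold, 12 with array weights, 0 by either adjusted t-test, 111 and 82 by the unadjusted ones, 2 without both ouabain replicates 1, and 0 (without the 3-day untreated replicate 2) to 9 (without the 7-day untreated replicate 3) when each array was left out. The 370 probe sets whose day difference differed between ears became 231 above 2-fold and 190 (without the 3-day ouabain replicate 2) to 650 (without 3-day replicate 1), and the 317 called in both tests became 199 and 178 to 557, without the same arrays.

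The replicate numbers were not taken as pairs. Deviations of ouabain arrays of equal number correlated by 0.246, 0.124 and 0.031 between the days. With the replicate number as a block 1334 probe sets were called between the ouabain days, 370 in the test of the difference between ears and 315 in both, 4 neuron genes were lower, and Gfap and Met lost their call. With ears of equal code and day as a random block, 1267, 718 and 546 were called.

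Of 69 named genes called, 44 held whichever array was left out. The others lost their call without at least 1 ouabain array, 21 of them without the 3-day replicate 3. Those not yet named as such are H2-Aa without the 7-day replicate 2, Col2a1 and Gla without the 3-day replicate 3, Thbs2 without that or the 7-day replicate 2, Cd28 without the 3-day replicate 2 or 3, Pth1r without the 3-day replicate 2 or the 7-day replicate 1, and Sost, Aplnr, Otoa, Loxl1, Ebf1, Cxcl5, Met, Gfap, Hdac9, H2-Ab1 and H2-Eb1 without any of 3 or more arrays. The Xist level in the fit ended the calls of Stfa3, Col1a1, Cpz, Gfap, Hdac9, Aplnr, Met and Sost among those 69, beside the members named in the report. With 3 arrays a group, differences under 1.5-fold were not called whatever their p, and probe sets near background, such as those of hair cells, limit what could be seen.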

Other observations

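Groups drawn up after values were seen held further genes that moved together, and their counts are descriptions. Of all genes, 1.86% were higher and 2.26% lower. Since the members were chosen from these same values, the counts with an array left out do not support a group either. Of 12 transporters and receptors of the leptomeninges and choroid plexus, 10 were higher at 7 days in ouabain-treated nerve and none was lower, with a median of 0.88 against 0.00 in untreated nerve. Slc22a8, an organic anion transporter, stood at 7.48, 7.23 and 7.59 at 3 days and at 8.41, 8.73 and 8.51 at 7 days, against 8.20 to 8.40 in untreated nerve, and Slc13a4, a sulfate transporter, at 10.75, 10.57 and 10.73 and then at 11.25, 11.29 and 11.36. They rose by 1.12 (SE 0.11) and 0.62 (SE 0.09), and with the serotonin receptor Htr2c (1.01) they passed the test of the difference between ears. Ttr, the defining product of the choroid plexus, differed by -0.01 (SE 0.38). The count was 8 to 10 whichever array was left out.

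Of 12 astrocyte genes, 7 were higher at 7 days, with a median of 0.74 against 0.33 in untreated nerve, but the count was 4 or fewer without any of the ouabain arrays, down to 1 without the 3-day replicate 2. Besides Ntsr2, they were Slc39a12 (1.18), Rfx4 (1.09), Mlc1 (1.0), Agt (0.78), Bcan (0.75) and Slc25a18 (0.74). Aqp4 stood at 11.77, 11.50 and 11.95 and then at 12.46, 12.41 and 12.22, without a call (adjusted p 0.0577). How much of the central part of the nerve each pool held is not given, and its part in these values was not tested.

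Of 15 cartilage genes, 6 were higher and none lower, with a median of 0.64 against -0.10 in untreated nerve. Chad, chondroadherin, stood at 9.27, 8.60 and 8.11 and then at 10.18, 9.86 and 10.01, a rise of 1.35 (SE 0.23, adjusted p 0.00656), against 9.55 to 10.04 in untreated nerve. The count was 2 without the 3-day replicate 2 or 3 or without the 7-day replicate 3.

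Of 10 acute phase proteins, 5 fell and none rose. Serpina3n stood at 9.76, 10.03 and 9.95 and then at 8.10, 8.08 and 8.57, and Chil1 at 9.04, 9.30 and 8.78 and then at 7.15, 6.75 and 7.31, with falls of 1.66 (SE 0.22) and 1.97 (SE 0.16). Of 11 measured S100 genes, S100a4, a calcium-binding protein of motile and fibroblastic cells, fell by 2.03 (SE 0.09, adjusted p 5.39e-07), from 12.50, 12.62 and 12.74 to 10.61, 10.53 and 10.64, against 8.31 to 8.51 in untreated nerve, and S100a3 and S100a6 fell by 1.64 and 0.71. Of 10 melanosome genes, Pmel and Mlph fell along with Tyrp1, by 1.27 and 0.72. Tyr and Dct, the other enzymes of melanin synthesis, varied among the pools instead. Dct stood at 10.61, 9.64 and 5.34 at 3 days and at 7.26, 6.80 and 7.00 at 7 days.

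Of 17 clock genes, Arntl rose by 1.08 and Npas2 by 1.59 in ouabain-treated nerve, and Per2 fell by 1.15. In untreated nerve their differences were 0.68, 1.03 and -1.50, and Dbp, an output gene, differed by -0.86 in treated and -1.38 in untreated nerve. The time of day of dissection is not given.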
